A study of Mus musculus with 4 samples.

Results

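The genes described here are the 8 that encode the H3K9 methyltransferases Setdb1, Suv39h1, Suv39h2, Setdb2, Ehmt1 and Ehmt2 and the SETDB1 cofactors Atf7ip and Trim28, chosen by symbol from the 56980 genes of the count matrices. Each symbol had 1 row. The matrices were single-cell RNA counts from mouse dorsal skin, labelled E16.5, made from cells sorted as Epcam+α6+ (Epcam and the hemidesmosomal α6 integrin, the surface profile of basal keratinocytes). Both groups carried Suv39h1 f/f, Suv39h2-/- and Setdb1 f/f and received tamoxifen. The 2 Ctrl embryos lacked K14CreERT2, and the 2 TKO embryos carried it, so that floxed alleles are recombined where the keratin 14 promoter is active. Suv39h2 was therefore deleted in both groups, and non-keratinocytes of TKO embryos keep floxed alleles. The study's list of litters gives an earlier collection day for its single-cell litter, and the age was not settled here. The study describes the TKO embryos as mosaic and its controls in general as Cre-negative littermates. Each library came from 1 embryo, and with 2 libraries a group the p-values measure only the spread between these embryos. The question asked of these genes was whether RNA of the enzymes that were not targeted, or of their cofactors, was higher when the targeted enzymes were deleted.

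Methylation of lysine 9 of histone H3 marks silent chromatin. SUV39H1 and SUV39H2 write the trimethyl mark at constitutive heterochromatin and spread it by binding it. SETDB1 writes it at retroviral elements and selected genes, where KRAB zinc finger proteins bring it through TRIM28 (KAP1), and ATF7IP holds SETDB1 in the nucleus and protects it from degradation. EHMT2 (G9a) and EHMT1 (GLP) form a heterodimer that writes mono- and dimethylation. SETDB2 is a relative of SETDB1. All 6 enzymes carry a SET domain, in which a conserved motif, Asn-His-x-Cys-x-Pro-Asn, binds the methyl donor. The codons of that motif are shown to place the catalytic core that the 6 enzymes share relative to the transcript end at which the reads were counted. The codon of its cysteine is in capitals.
Setdb1: aatcacagtTGCagccccaac
Suv39h1: aaccatagtTGTgatcccaac
Suv39h2: aatcatagtTGTgacccaaat
Setdb2: aatcatagtTGCtgtccaaat
Ehmt1: aaccaccacTGCgaacccaac
Ehmt2: aaccacctgTGTgaccccaac
These codons were read 5′ to 3′ from the transcript sequences of GENCODE M39 on GRCm39. In Setdb1 they lie in exons 20 and 21 of 22 on the minus strand of chr3:95231687-95231943, which includes the intron between them, and in Suv39h1 in exons 4 and 5 of 6 on the minus strand of chrX:7930053-7930158. In Suv39h2 they lie in exons 4 and 5 of 6 (chr2:3460912-3463526, minus strand) and in Setdb2 in exons 13 and 14 of 15 (chr14:59644166-59646629, minus strand). In Ehmt1 and Ehmt2 a single exon, 26 of 27, holds the motif (chr2:24682391-24682411, minus strand, and chr17:35131667-35131687, plus strand). The motif sits 531 bases from the annotated 3′ end in Ehmt2 and between 1947 and 4111 bases from it in the other enzymes, while the library chemistry reads transcripts near their 3′ end. The exons removed by recombination are not given in the sources used here, so a UMI (a counted RNA molecule) of Setdb1 or Suv39h1 does not tell an intact transcript from a deleted one, and the counts do not check the deletion.

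The 4 libraries held between 3804 and 5785 barcodes and between 70749496 and 89655247 UMIs. After filters 10764 cells remained, of which 4660 were basal-like, 1635 suprabasal-like, 1986 hair follicle-like and 1557 non-epithelial, and 926 were other keratinocytes that enter only the pooled keratinocytes. The classes came from clusters formed without the 8 genes. Each class led in the summed markers it was named by. The 8 basal markers summed to between 13376 and 20097 CPM (a gene's UMIs per 1000000 UMIs of the class) in basal-like cells, to at most 7859 CPM in the other keratinocyte classes and to at most 1209 CPM in non-epithelial cells, and the 13 hair follicle markers summed to at least 3337 CPM in hair follicle-like cells and to at most 948 elsewhere. Among TKO suprabasal-like cells Krt10, an early differentiation keratin, was at 11390 and 18147 CPM against 25927 and 25088 in Ctrl. Median UMIs per keratinocyte were 21963 and 17341 in Ctrl and 30124 and 28111 in TKO. The share of non-epithelial cells that scored as erythroid was 24.2% in TKO replicate 2 and between 6.76% and 10.3% in the other libraries. Any pair of libraries shared at most 12 barcodes.

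Among the targeted enzymes, Setdb1 RNA was lower in TKO than in Ctrl in each keratinocyte class, at about the same ratio, and passed the test in basal-like cells. Setdb1 lies on the minus strand of chr3:95229399-95264541. In basal-like cells it was at 72.3 and 58.2 CPM in Ctrl and at 39.7 and 44.0 CPM in TKO. Both TKO libraries lay below both Ctrl libraries. In edgeR's quasi-likelihood test on UMIs summed per library, it fell by 0.64 on the log2 scale (SE 0.14, adjusted p = 0.0313), to 0.643 of the Ctrl level with a 95% interval of 0.511 to 0.810. Of all 17258 genes tested in this class 4.75% were lowered and 8.55% raised, and Setdb1 was the 1 member among the lowered. The call did not hold without Ctrl replicate 1 (adjusted p = 0.149) or without TKO replicate 1 (adjusted p = 0.0851).

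The same difference in the other classes missed the threshold. In hair follicle-like cells Setdb1 was at 77.3 and 60.6 CPM in Ctrl and 42.9 and 46.9 CPM in TKO. Its log2 change there was -0.59 (SE 0.15, adjusted p = 0.0520). In suprabasal-like cells the libraries of a group lay closest together, at 53.0 and 52.7 CPM in Ctrl and 35.6 and 35.6 CPM in TKO, with a log2 change of -0.66 (SE 0.12, adjusted p = 0.0924). In the pooled keratinocytes the change was -0.64 (SE 0.13, adjusted p = 0.0506 with edgeR), and DESeq2 gave an adjusted p of 0.0030 for it. The Setdb1 groups did not overlap in any keratinocyte class. In non-epithelial cells, which K14CreERT2 does not target, Setdb1 was at 81.8 and 83.1 CPM in Ctrl and 77.5 and 88.4 CPM in TKO, and the groups overlapped. The genotype effect in keratinocytes differed from that in non-epithelial cells by -0.66 on the log2 scale (95% interval -1.12 to -0.20, adjusted p = 0.256), which missed the threshold over all genes. Setdb1 overlaps Cers2 on the opposite strand at its 3′ end, and in bulk sums a lower level in each cell cannot be told apart from a mosaic of cells with and without the transcript.

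Suv39h1, the X-linked partner of Suv39h2 in constitutive heterochromatin, did not pass the test in any class although its alleles are floxed. It lies on the minus strand of chrX:7927403-7940999. In basal-like cells it was at 31.9 and 29.9 CPM in Ctrl and 29.1 and 24.1 CPM in TKO, and the TKO libraries were the lower ones. Its log2 change was -0.21 (95% interval -0.51 to 0.09, adjusted p = 0.308). In hair follicle-like cells the Ctrl values of 30.1 and 28.2 CPM again lay above the TKO values of 23.6 and 24.6 CPM, with a log2 change of -0.25 (adjusted p = 0.275). In suprabasal-like cells the groups overlapped, at 9.88 and 10.7 CPM in Ctrl and 15.0 and 10.1 CPM in TKO. Non-epithelial cells had more Suv39h1 in TKO, 21.7 and 19.0 CPM against 15.5 and 11.8 CPM from 44 to 244 UMIs a library, with a log2 change of 0.58 that missed the threshold (adjusted p = 0.531). The study's methods state that both sexes were used in each group, but here Xist, the RNA of the inactive X chromosome, was at most 0.139 CPM in the keratinocytes of every library, and the Y-linked Ddx3y was at 90.5 and 101 CPM in Ctrl and 81.9 and 78.8 CPM in TKO.

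Suv39h2 (chr2:3455774-3476146, minus strand), deleted in the germline of both groups, was still counted. In basal-like cells it stood at 17 and 19.3 CPM in Ctrl and 25.4 and 18.9 CPM in TKO. The groups overlapped, and the log2 change was 0.29 (95% interval -0.10 to 0.68, adjusted p = 0.292). No keratinocyte class gave a call for it, with log2 changes between 0.21 and 0.29. In non-epithelial cells Suv39h2 rested on 12 to 102 UMIs a library, with a log2 change of 0.48 (adjusted p = 0.759).

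**Figure D1:**
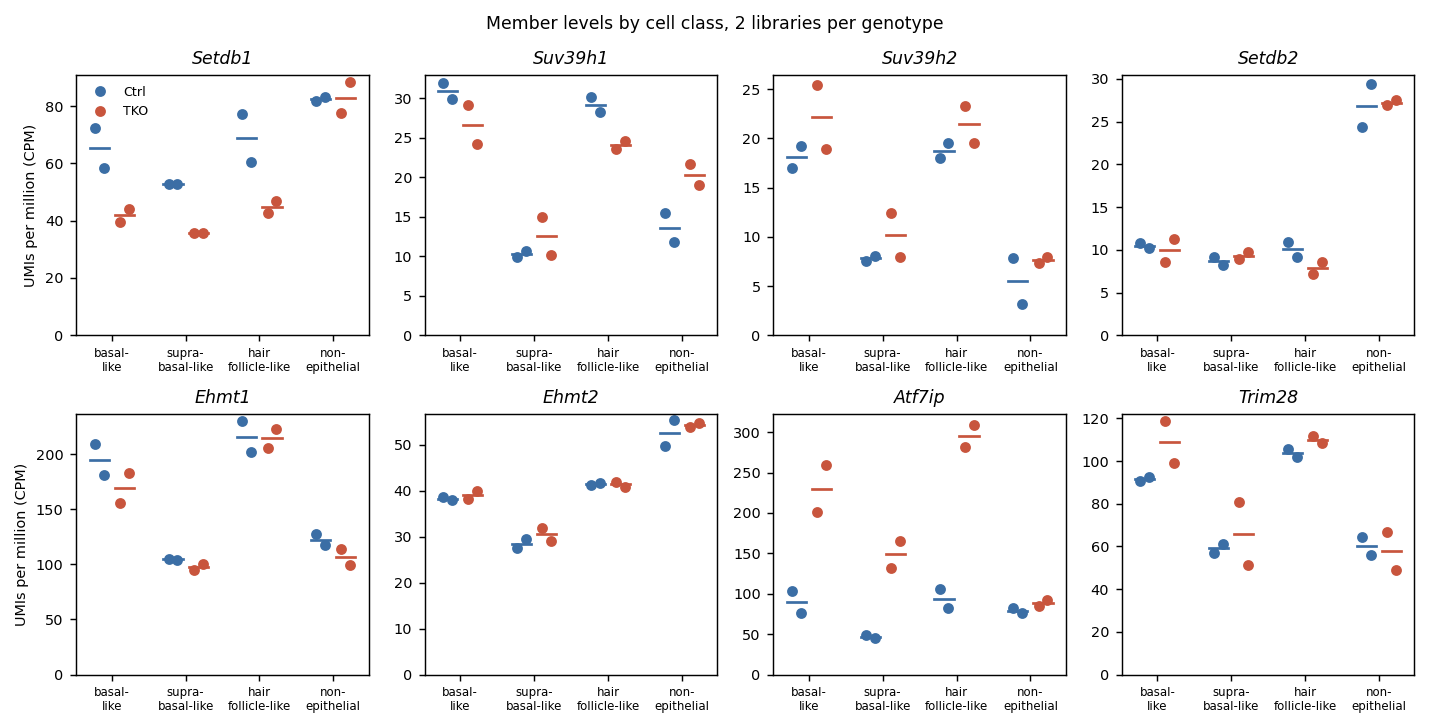
Level in CPM of each of the 8 genes (y axis, CPM) in basal-like, suprabasal-like, hair follicle-like and non-epithelial cells, with 1 point per library and a bar at the mean of the 2 libraries of Ctrl (blue) and TKO (red). Atf7ip is higher in both TKO libraries in the 3 keratinocyte classes, Setdb1 is lower in both, and Ehmt2 shows hardly any gap between genotypes.

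Ehmt1, Ehmt2 and Setdb2, the 3 enzymes among the 8 genes that were not targeted, were not called in any class. Ehmt2 (chr17:35117256-35133048, plus strand), which encodes the G9a subunit of the G9a/GLP dimer, had the narrowest interval of the 3 in pooled keratinocytes, basal-like and hair follicle-like cells, and Ehmt1 in suprabasal-like and non-epithelial cells. In basal-like cells Ehmt2 was at 38.6 and 37.9 CPM in Ctrl and 38.3 and 40.0 CPM in TKO. Its groups overlapped there and in the other classes. In suprabasal-like cells it was at 27.4 and 29.5 CPM in Ctrl and 31.8 and 29.1 CPM in TKO, and in hair follicle-like cells all 4 libraries lay between 40.9 and 42.0 CPM. In pooled keratinocytes both TKO libraries (38.3 and 37.5 CPM) lay above both Ctrl libraries (36.1 and 37.2 CPM), and the 95% interval of the ratio ran from 0.868 to 1.20 around 1.02. In non-epithelial cells it was at 49.7 and 55.3 CPM in Ctrl and 53.9 and 54.7 CPM in TKO, with a log2 change of 0.06 (adjusted p = 0.926). The intervals in the 3 keratinocyte classes had upper bounds between 1.21 and 1.25.

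Ehmt1 (chr2:24679940-24809696, minus strand) was at 209 and 181 CPM in basal-like cells of Ctrl and at 156 and 183 CPM in TKO. TKO replicate 2 lay between the Ctrl libraries. Its hair follicle-like levels were 230 and 202 CPM in Ctrl and 206 and 223 CPM in TKO. Both TKO libraries were the lower ones in suprabasal-like cells, at 94.5 and 101 CPM against 105 and 104 CPM, with a log2 change of -0.19 (adjusted p = 0.502). They were also the lower ones in non-epithelial cells, at 114 and 99.6 CPM against 127 and 117 CPM, with a log2 change of -0.19 (adjusted p = 0.705), and in pooled keratinocytes. The ratio of TKO to Ctrl in pooled keratinocytes was 0.897 (95% interval 0.742 to 1.09). In basal-like cells it was 0.871 (95% interval 0.698 to 1.09) and in hair follicle-like cells 1.01 (95% interval 0.844 to 1.21). The genotype effect in hair follicle-like cells exceeded that in basal-like cells by 0.27 on the log2 scale (95% interval 0.09 to 0.44, adjusted p = 0.0970 with edgeR), which missed the threshold, although it was called with cells thinned to 5000 UMIs (0.52, adjusted p = 0.0117). Ehmt1 overlaps 2 other annotated transcripts on its own strand, between which counting could divide reads.

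Setdb2 (chr14:59637727-59678557, minus strand) had the lowest level and the widest intervals of these 3 enzymes. It was at 10.8 and 10.2 CPM in Ctrl basal-like cells and 8.61 and 11.2 CPM in TKO, from 282 to 314 UMIs a library. The groups overlapped there, and in hair follicle-like cells the TKO values of 7.21 and 8.59 CPM lay below the Ctrl values of 11 and 9.17 CPM (log2 change -0.32, adjusted p = 0.405). In suprabasal-like cells it was at 9.13 and 8.20 CPM in Ctrl and 8.90 and 9.68 CPM in TKO, with a log2 change of 0.01 (adjusted p = 0.992). In non-epithelial cells, at 24.3 and 29.4 CPM in Ctrl and 26.9 and 27.5 CPM in TKO, the groups overlapped as well, with a log2 change of 0.02 (adjusted p = 0.98). Setdb2 overlaps the processed pseudogene Gm16301 on its own strand, with which counting could divide reads. The ratio of TKO to Ctrl in pooled keratinocytes was 0.945 with a 95% interval of 0.696 to 1.28. None of the alternatives tried called Setdb2, Ehmt1, Ehmt2, Suv39h1, Suv39h2 or Trim28 in any of the 5 comparisons of TKO with Ctrl. These intervals concern RNA and not protein or enzyme activity.

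The SETDB1 cofactor Atf7ip rose in every keratinocyte class. Atf7ip occupies chr6:136483165-136587860 on the plus strand. In basal-like cells it was at 103 and 75.6 CPM in Ctrl and 201 and 259 CPM in TKO, and the lower TKO library stood well above the higher Ctrl library. The rise was 1.37 on the log2 scale (SE 0.19, adjusted p = 0.00928), or 2.59-fold with a 95% interval of 1.88 to 3.57. In hair follicle-like cells it was at 106 and 81.9 CPM in Ctrl and 282 and 309 CPM in TKO, a rise of 1.68 (SE 0.14, adjusted p = 0.00149) or 3.20-fold. In suprabasal-like cells it was at 48.8 and 44.9 CPM in Ctrl and 132 and 166 CPM in TKO, a rise of 1.58 (SE 0.17, adjusted p = 0.0343). The suprabasal call did not hold without Ctrl replicate 1 (adjusted p = 0.116) or without Ctrl replicate 2 (adjusted p = 0.112), with log2 changes of 1.66 and 1.47, nor with the genes changed between genotypes kept in clustering (adjusted p = 0.0938). The make-up of these suprabasal-like cells moved with genotype. Their 13 hair follicle markers summed to 73.2 and 112 CPM in Ctrl and 267 and 313 CPM in TKO, their 11 suprabasal markers to 57180 and 53049 CPM in Ctrl and 25419 and 41680 CPM in TKO, and the part of this in the Atf7ip and Resf1 values was not tested. The summed markers of hair follicle-like cells also moved with genotype without overlap. Basal markers were at 7852 and 7859 CPM in Ctrl and 5951 and 5838 CPM in TKO, suprabasal markers at 563 and 389 CPM against 164 and 255 CPM, and the 8 Merkel cell markers at 49.0 and 59.5 CPM against 21.2 and 16 CPM, while the hair follicle markers overlapped (3521 and 3642 CPM against 3337 and 4035 CPM). In basal-like cells the basal markers were at 17238 and 20097 CPM in Ctrl and 13376 and 17189 CPM in TKO, and suprabasal markers were at 984 and 809 CPM against 374 and 612 CPM. Fibroblast markers in them were at 1473 and 1631 CPM against 1109 and 978 CPM, and Merkel cell markers at 29.7 and 23.9 CPM against 20.1 and 15.1 CPM. Endothelial markers were higher in TKO, at 37.6 and 25.3 CPM against 17.6 and 18.6 CPM. In hair follicle-like cells melanocyte markers were lower in TKO (9.05 and 13.6 CPM against 25.4 and 37.3 CPM) and immune markers higher (37.2 and 45.6 CPM against 25.6 and 28.6 CPM). Their part was not tested either. In pooled keratinocytes the rise was 2.84-fold (95% interval 2.13 to 3.78, adjusted p = 0.0132), and it was called under all 16 alternatives tried there. Atf7ip was the 1 member raised in each keratinocyte comparison, against 3.88% of all genes in pooled keratinocytes, 0.659% in suprabasal-like cells and 4.61% in hair follicle-like cells. The shares of genes lowered were 2.21%, 0.188% and 4.44%, with no member among them.

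Trim28 (chr7:12733041-12764976, plus strand), the adaptor between KRAB zinc finger proteins and SETDB1, did not pass the test. Basal-like cells had it at 90.7 and 92.6 CPM in Ctrl and 119 and 98.9 CPM in TKO. Both TKO libraries were the higher ones, and the log2 change was 0.25 (95% interval -0.01 to 0.51, adjusted p = 0.182). In hair follicle-like cells the change was 0.11 (adjusted p = 0.535), and in suprabasal-like cells the TKO values of 80.6 and 51.5 CPM lay on either side of the Ctrl values of 56.9 and 61.2 CPM, with a log2 change of 0.06 (adjusted p = 0.923). In non-epithelial cells it was at 64.6 and 56.1 CPM in Ctrl and 66.6 and 49.1 CPM in TKO, and the log2 change was -0.07 (adjusted p = 0.920). Trim28 overlaps the non-coding Gm71824 on its own strand, with which counting could divide reads, and Zbtb45, Chmp2a and the non-coding Gm71836 on the opposite strand.

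**Figure D2:**
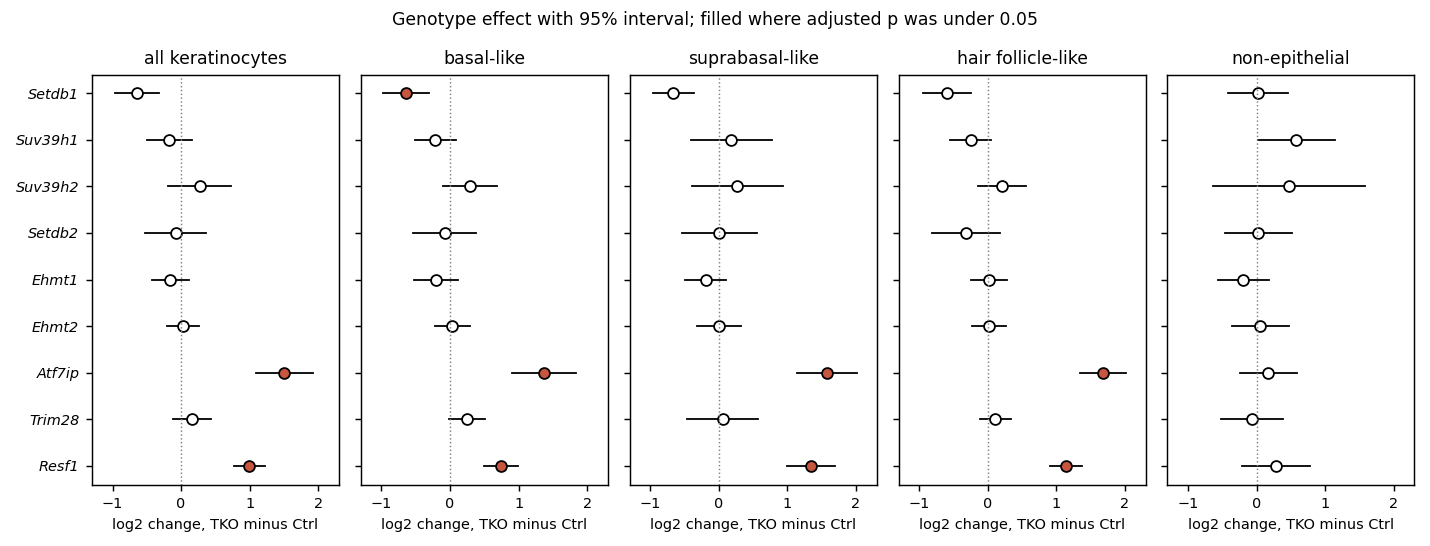
Log2 change of TKO against Ctrl (x axis) with its 95% interval for the 8 genes and Resf1 (y axis) in pooled keratinocytes and each class, filled where edgeR's adjusted p was under 0.05. Atf7ip and Resf1 are filled in the 4 keratinocyte panels, Setdb1 is filled in basal-like cells at -0.64, and no point is filled in non-epithelial cells.

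The rise of Atf7ip was seen in keratinocytes and was not detected in the other cells of the same libraries. In non-epithelial cells Atf7ip was at 82.6 and 75.9 CPM in Ctrl and 85.1 and 92.0 CPM in TKO, a ratio of 1.12 (95% interval 0.842 to 1.5, adjusted p = 0.771). The effect in keratinocytes exceeded that in non-epithelial cells by 1.33 on the log2 scale (95% interval 0.92 to 1.73, adjusted p = 0.0547 with edgeR over 21330 genes). It missed the threshold, and 0.169% of all genes passed it. Without TKO replicate 1 or 2 the difference was 1.37 and 1.21 and was called. Without Ctrl replicate 1 or 2 it was 1.45 and 1.19 and was not called. With all libraries it was called by edgeR with no expression filter (adjusted p = 0.000786), at 5000 UMIs per cell (0.0272) and with uncorrected components (0.0472). In non-epithelial cells 0% of 15553 genes passed edgeR's test, 1444 had an unadjusted p under 0.05, and DESeq2 called 79, none of them a member. Their make-up differed between libraries, with fibroblasts at 50% and 43.0% in Ctrl and 35.5% and 21.5% in TKO, and Krt5, the basal keratin, was counted in them at 278 and 91.9 CPM in Ctrl and 98.8 and 190 CPM in TKO. The part of these differences in the non-epithelial values was not tested.

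Between keratinocyte classes no member's genotype effect differed past the threshold. The change of Atf7ip in hair follicle-like cells exceeded that in basal-like cells by 0.36 (95% interval 0.14 to 0.58, adjusted p = 0.0775), where 4.48% of all genes passed, and so missed the threshold. Without TKO replicate 2 it was 0.48 (adjusted p = 0.00735), without TKO replicate 1 it was 0.23 (adjusted p = 0.328), and without Ctrl replicate 1 or 2 the adjusted p was 0.243 and 0.174. Suprabasal-like and basal-like cells differed in Atf7ip by 0.21 (95% interval -0.11 to 0.52, adjusted p = 0.538), where 0.193% of all genes passed. For Setdb1 the differences were 0.09 and -0.02, with 95% intervals from -0.12 to 0.30 and from -0.38 to 0.34.

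Of the 20 other H3K9 genes examined, 6 are partners or stabilizers of the G9a/GLP and SETDB1 complexes, 3 are PRDM-family methyltransferases and 11 are demethylases. In pooled keratinocytes and in basal-like cells 1 of 20 was raised and none lowered, beside 3.88% and 8.55% of all genes raised and 2.21% and 4.75% lowered. In suprabasal-like cells 1 of 16 tested was raised, beside 0.659% of all genes. Hair follicle-like cells had 2 of 20 raised and none lowered, beside 4.61% of all genes raised and 4.44% lowered. The median log2 change of the list was -0.07 in basal-like cells, beside -0.02 over all genes tested, and 0.01 beside -0.01 in hair follicle-like cells. None of the 11 demethylases, which remove the mark, was called in a class in which it was tested, which at these shares says little about them. In hair follicle-like cells 3 of the 11 had an unadjusted p under 0.05, as had 3878 of all 15691 genes tested, so nothing is read from it.

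The gene raised in all 4 keratinocyte comparisons was Resf1 (chr6:149210812-149237161, plus strand), which encodes a binding partner of SETDB1 in retroelement silencing. Its basal-like levels were 54.7 and 56.6 CPM in Ctrl and 99.9 and 86.3 CPM in TKO, a rise of 0.74 (SE 0.10, adjusted p = 0.00906) or 1.68-fold. In suprabasal-like cells it was at 32.7 and 34.3 CPM in Ctrl and 102 and 80.0 CPM in TKO, a rise of 1.34 (adjusted p = 0.0290). This rise was 1.32 and 1.33 without Ctrl replicate 1 or 2, where it was not called. With the changed genes kept in clustering it was 1.21 and also not called (adjusted p = 0.0711 with edgeR). Hair follicle-like cells had it at 66.0 and 69.2 CPM in Ctrl and 145 and 148 CPM in TKO, a rise of 1.14 (SE 0.10, adjusted p = 0.00149) or 2.21-fold. The genotype effect on Resf1 was larger in hair follicle-like than in basal-like cells by 0.45 (95% interval 0.22 to 0.67, adjusted p = 0.0414), but was not called without TKO replicate 2 (0.33, adjusted p = 0.0979) or without either Ctrl library (adjusted p = 0.133 and 0.157). The difference between suprabasal-like and basal-like cells was 0.60 (95% interval 0.30 to 0.90, adjusted p = 0.119), which missed the threshold but was called with no expression filter (adjusted p = 0.0250). In non-epithelial cells Resf1 stood at 66.9 and 84.2 CPM in Ctrl and 86.4 and 96.1 CPM in TKO, with an adjusted p of 0.673. Mecom, the second gene raised in hair follicle-like cells, encodes a PRDM-family zinc finger protein and was at 1.97 and 2.10 CPM in Ctrl and 6.42 and 4.29 CPM in TKO, a rise of 1.4 (SE 0.31, adjusted p = 0.0368) on 28 to 49 UMIs a library. Mecom overlaps 5 other annotated transcripts on its own strand.

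**Figure D3:**
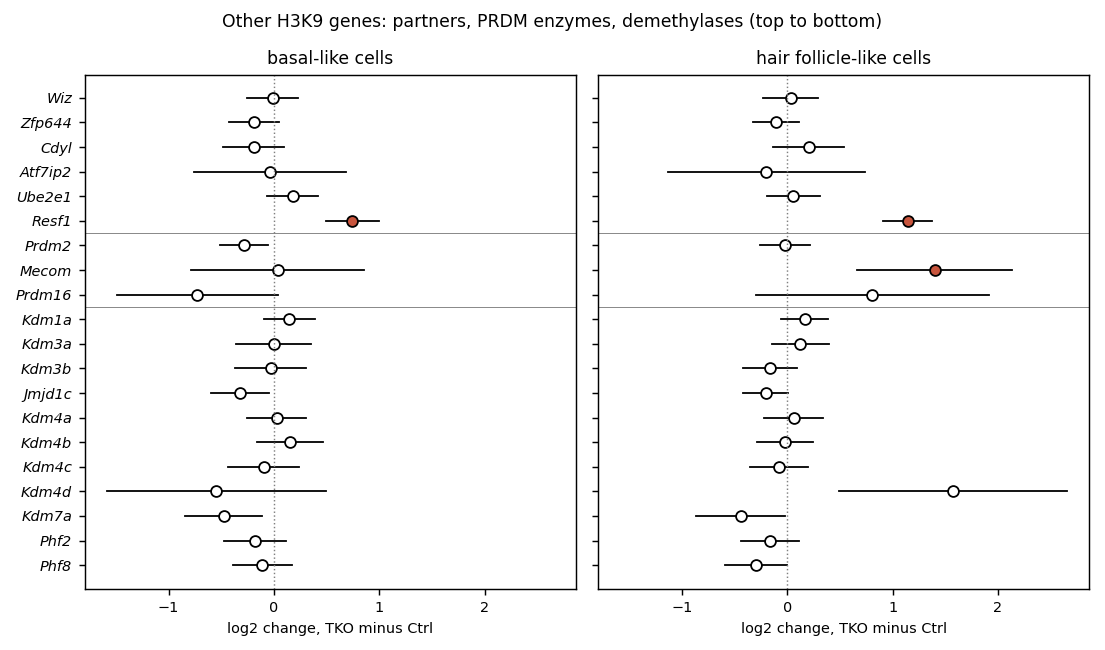
Log2 change of TKO against Ctrl with its 95% interval (x axis) for the 20 other H3K9 genes (y axis: partners, PRDM enzymes and demethylases, divided by lines) in basal-like and hair follicle-like cells, filled where edgeR's adjusted p was under 0.05. Resf1 is filled in both panels, at 0.74 and 1.14, and Mecom in the hair follicle-like panel, at 1.4.

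Since Atf7ip and Resf1 rose in the same comparisons, their promoters are shown, from 250 bases before to 50 after the start, with CpG dinucleotides in capitals.
Atf7ip: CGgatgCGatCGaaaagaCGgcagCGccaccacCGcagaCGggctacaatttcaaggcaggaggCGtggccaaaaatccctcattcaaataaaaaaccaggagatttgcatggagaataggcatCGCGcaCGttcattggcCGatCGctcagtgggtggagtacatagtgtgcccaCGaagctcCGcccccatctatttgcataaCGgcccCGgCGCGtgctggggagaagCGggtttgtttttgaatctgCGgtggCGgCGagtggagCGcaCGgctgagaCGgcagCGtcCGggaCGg
Resf1: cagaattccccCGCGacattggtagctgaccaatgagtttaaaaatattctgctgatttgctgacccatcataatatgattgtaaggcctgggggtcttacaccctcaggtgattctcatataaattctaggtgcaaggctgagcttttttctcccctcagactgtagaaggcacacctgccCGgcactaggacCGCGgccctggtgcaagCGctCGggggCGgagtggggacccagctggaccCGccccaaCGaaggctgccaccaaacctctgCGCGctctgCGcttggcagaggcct
Both are RefSeq sequences on the plus strand of GRCm38.p6, at chr6:136518601-136518900 for Atf7ip and chr6:149309164-149309463 for Resf1. The Atf7ip window holds 29 CpG, a number reached by 12.9% of the 32851 RefSeq promoters, and the Resf1 window 13, reached by 37.9%. Both genes lie on chromosome 6. Within 250 kb of Atf7ip 10 other genes were tested in pooled keratinocytes, a window chosen after these values were seen. Of these, 1 was raised, Gm44140, a non-coding RNA that overlaps the start of Atf7ip on the opposite strand (log2 change 4.51, adjusted p = 0.0496), and none was lowered. Within 250 kb of Resf1 none of 7 genes was called. Of all genes in pooled keratinocytes 3.88% were raised and 2.21% lowered, so nothing is read from these counts.

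In Ctrl, most members were lower in suprabasal-like than in basal-like cells. Suv39h1 had the largest gap, at 30.9 CPM ± 1.41 (SD, n = 2) in basal-like and 10.3 CPM ± 0.548 (SD, n = 2) in suprabasal-like cells, or 0.333 of the basal level. Suv39h2 was at 0.432, Atf7ip at 0.524, Ehmt1 at 0.536, Trim28 at 0.644, Ehmt2 at 0.744 and Setdb1 at 0.810 of the basal level. In none of the 7 members with a mean of at least 10 CPM did the Ctrl libraries of these classes overlap, but 51.4% of all genes at that level were likewise lower in suprabasal-like cells, and their median log2 ratio was -0.17. Setdb2, just under that level, was at 0.826 of the basal level. The order thus runs from the SUV39H enzymes, with the steepest gap, to Setdb1 and Setdb2, with the shallowest. These levels are a description without a test.

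Hair follicle-like and basal-like cells of Ctrl were nearly alike in these genes. The ratios lay between 0.944 for Suv39h1 and 1.13 for Trim28, and the libraries of the classes did not overlap for Ehmt2 and Trim28, which were higher in hair follicle-like cells, as were 45.4% of all genes at 10 CPM or more. Non-epithelial cells differed more. Setdb2 was 2.56 times as high in them as in basal-like cells (24.3 and 29.4 CPM against 10.8 and 10.2 CPM), and Ehmt2 and Setdb1 were 1.37 and 1.26 times as high. Suv39h1, Suv39h2, Ehmt1 and Trim28 were lower, at 0.441, 0.305, 0.627 and 0.658 of the basal level. Of all genes at 10 CPM or more, 38.8% were higher and 45.3% lower in non-epithelial cells by the same measure.

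Suv39h1 and Suv39h2 were higher in cycling than in non-cycling basal-like cells of every library. Cells were called cycling with at least 5 UMIs of 20 S and G2/M genes after thinning to 5000 UMIs, and 77 to 200 cells a library lay at 4 or 5 UMIs, next to this limit. In Ctrl replicates 1 and 2, Suv39h1 was at 37.7 and 34.8 CPM in cycling and 18.5 and 20.6 CPM in non-cycling cells, ratios of 2.03 and 1.69, and in TKO the ratios were 1.47 and 1.46. The Suv39h2 ratios were 1.51 and 1.59 in Ctrl and 1.71 and 2.55 in TKO. In non-cycling TKO cells Suv39h2 rested on 68 and 31 UMIs and Suv39h1 on 89 and 66 UMIs, which limits these ratios. A ratio over 1.4 in all 4 libraries was met by 4.23% of genes at 10 CPM or more, a limit chosen after the values were seen. Trim28 was higher in cycling cells as well, with ratios between 1.13 and 1.44, as were 23.9% of genes. Ehmt1 and Ehmt2 were slightly lower in cycling cells of each library, with ratios between 0.824 and 0.989, as were 31.5% of genes. Setdb1 showed no common direction, with ratios from 0.929 to 1.11.

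The gaps between genotypes in Setdb1 and Atf7ip were present in both states, while those in Suv39h1, Suv39h2, Trim28 and Setdb2 were not alike in them. The mean Setdb1 level was 65.1 CPM in Ctrl and 41.9 CPM in TKO in cycling cells, and 65.4 and 41.5 CPM in non-cycling cells. Atf7ip was at 88.7 CPM in Ctrl and 220 CPM in TKO in cycling cells, and at 89.4 and 289 CPM in non-cycling cells. For Suv39h1 the log2 ratio of TKO to Ctrl was -0.38 in cycling and -0.05 in non-cycling cells, and for Suv39h2 it was 0.21 and -0.15. For Trim28 it was 0.24 and -0.03, and for Setdb2 -0.20 and 0.28. Setdb2 rested on 37 and 50 UMIs in non-cycling TKO cells. The cells past this RNA limit, which is no direct measure of division, were 789 of 962 and 699 of 873 in TKO and 819 of 1285 and 884 of 1504 in Ctrl, among basal-like cells of at least 5000 UMIs. The part of these shares in the Suv39h1, Suv39h2, Trim28 and Setdb2 values was not tested. These ratios are a description without a test.

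**Figure D4:**
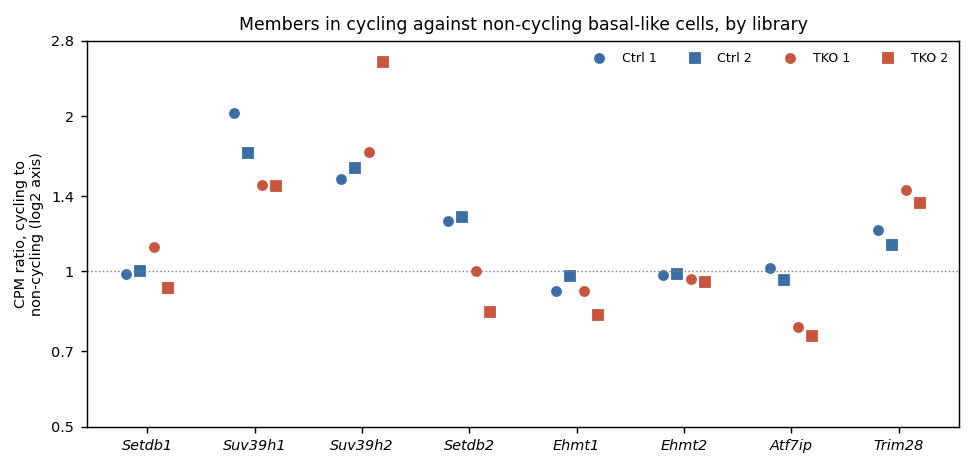
Ratio of levels (CPM) in cycling to non-cycling basal-like cells (y axis, log2 scale) for the 8 genes, with 1 point per library (blue Ctrl, red TKO). Suv39h1 and Suv39h2 lie above 1.4 in every library, and Atf7ip lies at 0.780 and 0.751 in TKO and near 1 in Ctrl.

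Because the study describes the TKO embryos as mosaic, TKO basal-like cells were also divided by 9 genes that were nearly silent in Ctrl. These genes were known from earlier results of these data. Cells with a UMI of at least 2 of these genes at 5000 UMIs (derepressed) made up 292 of 962 and 246 of 873 TKO cells and 0 of 1285 and 0 of 1504 Ctrl cells, and cells with none (silent) 310 and 306 TKO cells. Cells with 1 of the genes, 360 and 321, were left out of both. Silent means only that none of the 9 genes was counted at this depth. Such a cell need not lack their RNA, and whether silent cells kept intact floxed alleles was not tested. Atf7ip was higher in derepressed than in silent TKO cells, at 269 against 130 CPM in replicate 1 and 323 against 226 CPM in replicate 2, and silent TKO cells were still above the 102 and 75.3 CPM of silent Ctrl cells. The log2 ratios were 1.04 and 0.51, and 3.6% of genes at 10 CPM or more reached 0.5 in both libraries, a limit chosen after the values were seen. Resf1 was also higher in derepressed cells, at 127 against 70.7 CPM and 96.8 against 79.4 CPM. Its log2 ratios were 0.84 and 0.29, so that it missed this limit in replicate 2.

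Setdb1 RNA showed no stable direction between these cells. It was at 37.5 CPM in derepressed and 40.9 CPM in silent cells of TKO replicate 1 and at 42.8 and 46.2 CPM in replicate 2, all below the 72.2 and 58.0 CPM of silent Ctrl cells. The mean log2 ratio of derepressed to silent cells was -0.12, but 0.25 with levels at 5000 UMIs per cell and 0.040 with at least 3 of the listed genes. Suv39h1 was lower in derepressed cells, at 25.5 against 34.3 CPM and 18.6 against 29.9 CPM, and in silent TKO cells stood near its Ctrl level of 31.8 and 29.7 CPM. Suv39h2 followed, at 24.8 against 28.8 CPM and 15.2 against 19.7 CPM. Derepressed cells were also less often cycling, 75.3% against 86.8% in replicate 1 and 69.1% against 82.0% in replicate 2, and the part of this in the Suv39h1 values was not tested. Ehmt1, Ehmt2 and Setdb2 differed between the cells by at most 0.11 on the log2 scale in either library. Trim28 was at 104 CPM in derepressed and 125 CPM in silent cells of replicate 1 and at 91.1 and 99.2 CPM in replicate 2, log2 ratios of -0.26 and -0.12. These values are a description of 2 libraries without a test.

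**Figure D5:**
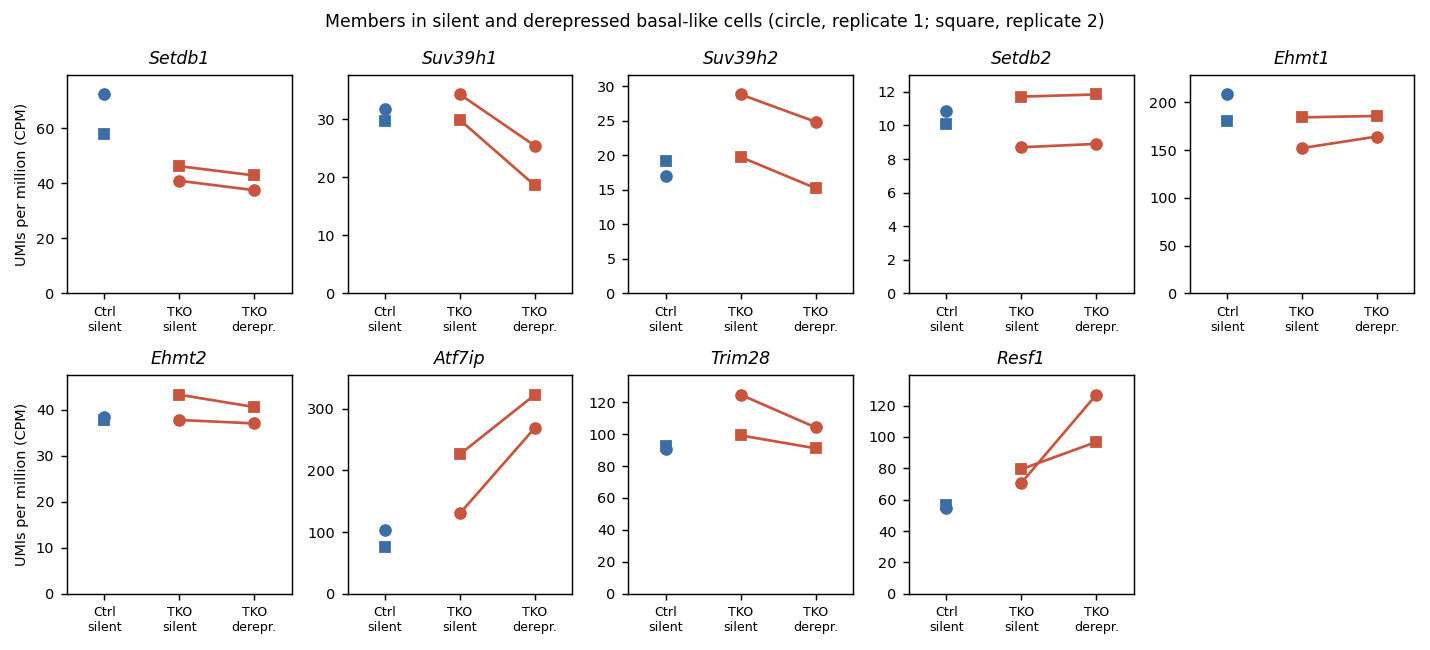
Level in CPM (y axis) of the 8 genes and Resf1 in silent basal-like cells of Ctrl (blue) and in silent and derepressed basal-like cells of TKO (red, joined within a library). Atf7ip and Resf1 are higher in derepressed than in silent cells of both TKO libraries, Suv39h1 is lower, and Setdb1 is lower than in Ctrl in both kinds of TKO cell.

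The genes whose levels followed Setdb1 most closely over the 16 sums of 4 libraries and 4 classes were Fat4 and Gtf2ird2 (Pearson r = 0.93 for each), Enox2 and Hif3a (0.91 for each) and Akap10 (0.90), among 9726 genes at a mean of at least 10 CPM. Fat4 is a giant cadherin and Hif3a a hypoxia-inducible factor. Of the members, Setdb2 (0.77) and Ehmt2 (0.71) followed it most closely, and Atf7ip ran opposite to it (-0.54). The 16 sums share libraries and classes and are not independent, so these values are a description.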

How the data were processed

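UMI counts per gene and barcode were used as the authors deposited them. Per the file headers they were made with Cell Ranger 7.1.0, while the study's methods name another version, and per the labels on GRCm39. Whether intronic reads were counted is not given in the sources used here. Cells with at least 2000 genes and at most 10% mitochondrial UMIs were kept (11221 of 19789 barcodes), and the highest Scrublet scores, 0.8% per 1000 barcodes, were removed (457 cells). Cells were clustered in scanpy 1.11.5 on 2000 variable genes and 30 components aligned across libraries with a reimplementation of Harmony (Leiden, resolution 1), without the 8 genes and the 20 other H3K9 genes. Keratinocytes were clustered again without the 1217 genes called between genotypes. Clusters were named from marker lists, each name resting on at least 3 detected markers.

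Counts were summed per class and library and tested with edgeR 4.0.16 (quasi-likelihood, TMM, filterByExpr, Benjamini-Hochberg over all genes tested, threshold 0.05), since cells are not replicates. The study tested single cells. Differences between classes were fitted with the library as a term. On data simulated for basal-like cells, 24 of 50 genes changed 1.5-fold and 44 of 50 changed 2-fold were recovered, and for the difference between suprabasal-like and basal-like cells 6 of 50 and 26 of 50. The simulation gave all genes the same fixed dispersion, basal-like mean levels and no effect of library. These shares hold for that setting only, and genes with more spread between libraries may be recovered less often. DESeq2 1.42.0, other scalings, filters, thinning and clusterings were alternatives. Positions are from GENCODE M39. The members and gene lists were chosen with earlier results of these data known. The text gives values for the 8 members in every class, for H3K9 genes called in any class, and for the 5 genes most like Setdb1.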

Additional observations from a re-analysis of the deposited data

Results flagged for a closer look

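The genotype effect on Resf1 in hair follicle-like cells exceeded that in basal-like cells by 0.45 on the log2 scale (adjusted p = 0.0414 in edgeR's test of the difference), with changes of 1.14 and 0.74. The difference was positive under all 7 alternatives and was called with no expression filter and without TKO replicate 1. It was not called at 5000 UMIs per cell (adjusted p = 0.145), with uncorrected components (0.0555), or without any other library.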

How the results depend on the processing

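Atf7ip kept its direction and its call under every alternative in pooled keratinocytes (16), basal-like cells (17) and hair follicle-like cells (17). In suprabasal-like cells it was called under 14 of 17, with the exceptions of the fits without either Ctrl library and of clustering with the changed genes kept. The Setdb1 difference was negative under all alternatives in the keratinocyte comparisons, and called under 3 of 16 in pooled keratinocytes, 14 of 17 in basal-like cells, 8 of 17 in hair follicle-like and 3 of 17 in suprabasal-like cells. Of 945 log2 changes of the 8 genes and Resf1 under alternatives, 810 kept direction and call, 14 lost a call, 23 gained one, and 98 changed sign without a call in either fit. No called value changed sign. The causes of these changes were not tested.

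The number of the 8 genes called was 1 in pooled keratinocytes, but 2 with DESeq2. In suprabasal-like cells it went from 1 to 2 with no expression filter and with uncorrected components, and 0 with the changed genes kept. In hair follicle-like cells it went from 1 to 2 with DESeq2, the changed genes kept, Leiden resolution 0.5 or 2, and at least 1000 or 3000 detected genes. For the difference of hair follicle-like and basal-like cells it went from 0 to 1 with no expression filter and at 5000 UMIs per cell. For keratinocytes against non-epithelial cells it went from 0 to 1 with these and with uncorrected components, and the gene called was Atf7ip. The number of all genes called was 1217 in pooled keratinocytes, but 2528 with DESeq2, 455 with no expression filter and 790 at 5000 UMIs. It was 2294 in basal-like cells, but 1230 at 5000 UMIs. It was 117 in suprabasal-like cells, but 508 with DESeq2, 1625 with no expression filter, 193 at 5000 UMIs, 45 with the changed genes kept, 522 with uncorrected components, 259 and 230 at Leiden resolution 0.5 and 2, 316 with doublets kept and 241 with at least 1000 detected genes. It was 1420 in hair follicle-like cells, but 732 at 5000 UMIs, 2530 with the changed genes kept, 2180 at Leiden resolution 2 and 2287 with at least 3000 detected genes. In non-epithelial cells it was 0, but 79 with DESeq2 and 2 in immune cells only, an alternative chosen after seeing the data.

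Leaving out 1 library at a time gave 342 to 2066 genes called in pooled keratinocytes, 870 to 2608 in basal-like cells, 446 to 1115 in hair follicle-like cells, 46 to 651 in suprabasal-like cells and 0 to 59 in non-epithelial cells. The members called were 1 to 2 in pooled keratinocytes, 1 to 2 in basal-like cells, 0 to 1 in suprabasal-like and 1 to 2 in hair follicle-like cells. They were 0 to 1 for the differences of hair follicle-like from basal-like cells and of keratinocytes from non-epithelial cells. The lone library of a group is then assumed to vary like the other group.

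Libraries with the same number did not deviate together (r = -0.47 over 8387 genes), and nothing says that the number marks a pair. With a replicate block 655 genes were called in pooled keratinocytes, and 1 of the 8 genes in basal-like cells, where Setdb1 had an adjusted p of 0.0548. With the crossed pairing as the block, chosen after seeing the data, 3445 genes were called in pooled keratinocytes, 3586 in basal-like, 2513 in hair follicle-like and 1001 in suprabasal-like cells. Each of these fits called 2 of the 8 genes.

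The mean log2 ratio of Setdb1 in derepressed to silent TKO cells was -0.12, but 0.040 with at least 3 of the listed genes and 0.25 with levels at 5000 UMIs per cell, the latter chosen after seeing the data, so no direction is read from it. Depth limits Suv39h2 in non-epithelial cells, with 12 to 102 UMIs a library, and in non-cycling basal-like cells of TKO, with 68 and 31 UMIs.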
